A study of Rattus norvegicus with 196 samples.

Results

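The ventral tegmental area (VTA) of the rat midbrain was compared between fluoxetine-treated (FT) and Sham animals in 8 of the 196 bulk RNA-seq samples of a survey of 25 brain regions. The samples were chosen by their labels (region VTA, replicates 1, 3, 4 and 5), which left 4 FT and 4 Sham samples. Rats were 2 months old when treatment began. For 6 weeks they had free access to plain water or to drinking water with fluoxetine, at 18 mg/kg of body weight per day. By the study's methods both groups were naïve male Long-Evans rats, so the comparison describes the drug in animals that had not been stressed. Each sample pooled punches from 10 animals, and differences between single animals are therefore averaged out. FT and Sham samples with the same replicate number were processed side by side and are treated here as pairs. The question was which transcripts of the VTA differ after chronic treatment with the drug.

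The VTA holds the dopamine neurons that project to the nucleus accumbens and the prefrontal cortex, mixed with neurons that release GABA or glutamate and with glia. Dopamine is made by tyrosine hydroxylase (Th) and dopa decarboxylase, is loaded into vesicles, and is cleared from the synapse by the dopamine transporter (Slc6a3). Fluoxetine blocks the serotonin transporter, and serotonin axons from the raphe nuclei innervate the VTA and act on several classes of receptor there.

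The libraries differed in depth and composition, and more so between replicate numbers than between treatments. Counts on transcripts ranged from 2041893 in Sham replicate 1 to 15631077 in Sham replicate 5. In replicate 3 the 50 most abundant transcripts took 74.6% (FT) and 76.4% (Sham) of the counts, against 29.5% to 32.0% in replicates 4 and 5, 37.0% in FT replicate 1 and 53.3% in Sham replicate 1. Levels are given as CPM (counts scaled to library size) after TMM (trimmed mean of M-values) normalisation, and the depth of Sham replicate 1 limits what can be said of transcripts below a few CPM. No pair of the 8 libraries was identical.

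By region means, Th and Slc6a3, markers of dopamine neurons, matched the label of the region. Single VTA libraries varied, with 9 to 1629 counts of Slc6a3. Th (ENSRNOT00000027682) averaged 312 CPM in the VTA (SD 188 over 8 samples), the highest mean of the 25 regions, followed by the locus coeruleus (LC) at 118 CPM. Slc6a3 (ENSRNOT00000040291) averaged 58.6 CPM (SD 63.1), again the highest, followed by the arcuate nucleus (Arc) at 7.68 CPM, while the median of the other regions was 0.126 CPM. The D2 receptor gene (listed as DRD2) ranked 6 at 17.0 CPM, below the accumbens core at 93.1 CPM, where striatal neurons carry it. Slc17a6, the vesicular glutamate transporter of midbrain and thalamus, ranked 3 at 224 CPM. The orexin gene Hcrt averaged 29.2 CPM in the VTA and 374 CPM in the ventromedial hypothalamus (VMH).

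**Figure D1:**
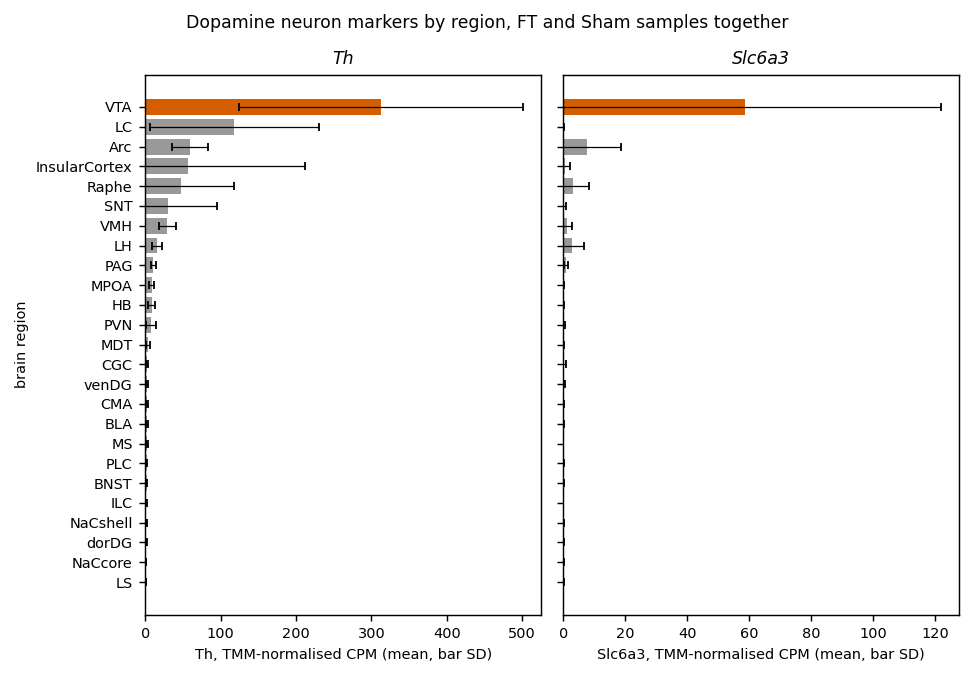
Mean TMM-normalised CPM of Th (left) and Slc6a3 (right) in each of the 25 regions, FT and Sham samples together, with bars of 1 SD cut at 0. The VTA, in orange, has the highest mean of both genes (312 and 58.6 CPM), and its SD is of the size of the mean for Slc6a3.

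Across the VTA transcriptome the calls depended on the statistical tool, and their balance of higher and lower on the replicates. In edgeR's quasi-likelihood test with the replicate pairs as blocks, 0 of 13955 transcripts tested (0%) passed an adjusted p of 0.1 with a log2FC (log2 of the FT to Sham ratio) of 0.322 or more in size, and the smallest adjusted p was 0.289. At an unadjusted p under 0.05 there were 1792 transcripts (12.8%), of which 1127 (8.08%) were higher and 665 (4.77%) lower in FT. Without replicate 1, which holds the shallowest library, the numbers were 1038 higher and 1089 lower, and in replicates 1 and 3 alone 1572 and 1636. The median log2FC of all transcripts was 0.01. DESeq2, the tool the study used, called 249 of 7988 transcripts with the same blocks and thresholds (3.12%), 193 higher (2.42%) and 56 lower (0.701%). FT exceeded Sham in 4 of 4 pairs for 1904 transcripts (13.6%) and lay below it in 4 of 4 for 1176 (8.43%). The 4 FT samples did not overlap with the 4 Sham samples for 444 transcripts (3.18%).

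The DESeq2 calls changed with each replicate left out, and so did the number of transcripts given an adjusted p. Without replicate 4 DESeq2 called 4 of 21071 transcripts, all among the 249. Without replicate 5 it called 46 of 2705, and 22 of them were among the 249. Without replicate 3 it called 78 of 11438, and 39 were shared. Without replicate 1 it called 299 of 11011, and 101 were shared. The totals differ, so the counts do not rank the replicates. The 4 that DESeq2 called without replicate 4 were Cga, which was lower, and Dusp10, Arpc4 and Klhl26, which were higher (log2FC of 2.31, 1.88 and 1.87). They are named here because the count was small, after their values were seen.

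The replicate pairs were unlike one another. Across the 13955 transcripts the log2 ratios of FT to Sham correlated between pairs 4 and 5 (r = 0.601) and weakly between pairs 1 and 3 (r = 0.245), while the other 4 combinations lay between -0.232 and 0.0722. The mean ratio of pairs 1 and 3 against that of pairs 4 and 5 gave r = -0.122. These r values are over transcripts of the same 8 libraries and are a description. Signs were opposite for 4073 transcripts (29.2%) that were higher in FT in pairs 1 and 3 and lower in pairs 4 and 5, and for 3217 (23.1%) in the reverse case. Within pairs 4 and 5 alone edgeR called 3211 of 14281 transcripts, and within pairs 1 and 3 alone 2421 of 10783. These are the pairs whose ratios were most alike, with few samples in each fit. The counts are therefore a description and no separate test of the drug. Whether the replicate numbers mark batches of animals, of tissue or of libraries beyond their shared processing cannot be told apart.

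**Figure D2:**
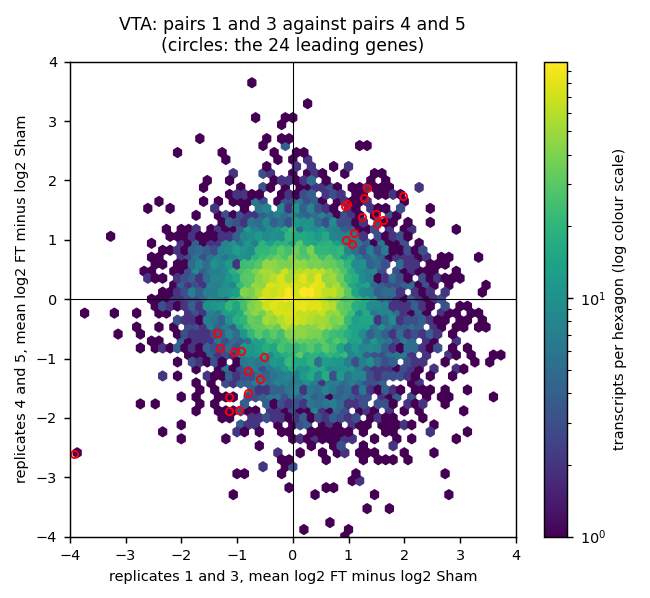
Mean log2 ratio of FT to Sham in replicates 1 and 3 (x axis) against replicates 4 and 5 (y axis), with the 13955 transcripts binned in hexagons coloured by number. The cloud shows no positive slope (r = -0.122), and the 24 leading genes, circled, lie in the lower left and upper right because they were selected for the same direction in all 4 pairs.

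The named transcripts with the smallest p that were higher in all 4 pairs were Ttc9b, Rab24, PCSK1N, C1qtnf4, Mtmr1, RGD1560394, Arhgdia, Akap17a, Med26, Gorasp1, Egln2 and Spsb3. They were selected on these values, so the values describe them and add no test. All 12 were also among the 249 transcripts that DESeq2 called. Their log2FC ran from 0.99 (Gorasp1 and Spsb3) to 1.68 (Akap17a), and the groups did not overlap for Ttc9b, Arhgdia and Gorasp1.

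Ttc9b (ENSRNOT00000025472), which encodes a protein with tetratricopeptide repeats, led the list. It read 36.5, 42.8, 16.8 and 19.3 CPM in FT replicates 1, 3, 4 and 5 and 14.0, 11.7, 5.22 and 9.41 CPM in the matching Sham samples. Every FT sample lay above every Sham sample. The log2FC was 1.48 with a standard error of 0.22 in edgeR (unadjusted p = 9.35e-05), and DESeq2 gave an adjusted p of 0.000266. Arhgdia encodes an inhibitor of GDP dissociation that holds small GTPases in the cytosol. It read 229, 398, 251 and 384 CPM in FT and 108, 217, 85.7 and 120 CPM in Sham, a log2FC of 1.3 ± 0.23 (SE), and the highest Sham sample, of replicate 3, was just under the lowest FT sample.

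Several of the others act in trafficking and in transcription. Rab24, a small GTPase linked to autophagy, read 37.6, 62.6, 34.0 and 66.7 CPM in FT and 18.5, 34.2, 12 and 20.8 CPM in Sham (log2FC of 1.29 ± 0.21, SE). Gorasp1, a stacking protein of the Golgi, read 42.3, 36.4, 24.6 and 44.0 CPM in FT and 19.6, 20.6, 13.8 and 19.3 CPM in Sham. The groups were apart for Gorasp1, whereas Sham replicate 3 overlapped with FT replicate 4 for Rab24. Med26, a subunit of the Mediator complex, read 29.3, 11.7, 56.4 and 152 CPM in FT and 12.3, 4.27, 27.8 and 22.7 CPM in Sham, so FT replicate 5 stood highest. Egln2 encodes an oxygen-sensing prolyl hydroxylase, and its log2FC was 1.10 ± 0.21 (SE).

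PCSK1N, which encodes proSAAS, an inhibitor of a prohormone convertase, was listed as a pair of transcripts. The first (ENSRNOT00000075774) read 10.5, 708, 7.18 and 15.3 CPM in FT and 6.72, 184, 1.65 and 5.69 CPM in Sham. The second (ENSRNOT00000009794) read 53.7, 1166, 36.8 and 61.8 CPM in FT and 23.0, 337, 13.8 and 41.4 CPM in Sham. Both were higher in 4 of 4 pairs, with replicate 3 far above the other numbers in both groups. Reads of the gene can be split between the 2 annotations, so their separate levels are uncertain. C1qtnf4, RGD1560394 and Akap17a showed the same high values in replicate 3, and the part of library composition in these levels was not tested.

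The 12 leading named transcripts lower in all 4 pairs were Cga, Nit2, Lrrtm2, Tmem18, ARL6, Prkaa2, Plcxd3, Lgi1, Rab9a, ZFP810, Plag1 and Cacnb4. DESeq2 called 9 of them, and it gave no adjusted p for Lrrtm2, Tmem18 and Prkaa2 because of their low counts. Their log2FC ran from -3.22 (Cga) to -0.76 (Cacnb4).

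Cga (ENSRNOT00000012385), the alpha subunit shared by the glycoprotein hormones of the pituitary, had the largest difference of the 24. It had 7, 1, 44 and 41 counts in FT replicates 1, 3, 4 and 5 and 28, 18, 114 and 1025 counts in the matching Sham samples, which is 0.712, 0.404, 2.12 and 2.62 CPM against 15.7, 6.99, 5.89 and 38.9 CPM. All FT samples lay below all Sham samples, and Sham replicate 5 stood highest. The log2FC was -3.22 ± 0.51 (SE) in edgeR, and DESeq2 gave -3.36 with an adjusted p of 9.19e-06. Cga was the only transcript that edgeR called without replicate 4 (log2FC of -4.13, adjusted p = 0.0929) and the only one that DESeq2 called without the blocks (adjusted p = 0.0466). Its VTA mean of 10.0 CPM compares with 239 CPM in the Arc, 43.0 CPM in the raphe and 0.186 CPM in the PAG (periaqueductal gray). The median of the regions other than the VTA was 0.639 CPM. The summed level of the 6 measured markers of hypothalamic neurons did not separate the groups. It ran from 19.0 to 296 CPM in FT and from 39.0 to 90.7 CPM in Sham. In pair 5 it was 19.0 CPM in FT and 83.2 CPM in Sham. That list holds no pituitary marker, and the part of neighbouring tissue in the Cga counts was not tested. In bulk tissue fewer cells of a type and less RNA per cell cannot be told apart, here and for the other genes.

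Among the other lower transcripts, 3 encode proteins of synapses and calcium channels. Lgi1, a secreted protein that organises synapses and is mutated in a form of epilepsy, read 12.2, 13.7, 12.9 and 12.5 CPM in FT and 28.0, 21.8, 26.9 and 20.2 CPM in Sham. The FT samples were nearly level and all lay below the Sham samples (log2FC of -0.91 ± 0.21, SE, DESeq2 adjusted p = 0.0366). Lrrtm2, a postsynaptic partner of neurexins, read 3.05, 1.62, 2.89 and 3.64 CPM in FT and 4.48, 5.83, 13.3 and 11.6 CPM in Sham, also without overlap. Cacnb4, an accessory subunit of voltage-gated calcium channels, read 43.2, 26.3, 34.3 and 25.6 CPM in FT and 61.0, 38.1, 67.4 and 50.9 CPM in Sham. Sham replicate 3 was below FT replicate 1 for Cacnb4, so its groups overlapped.

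Of the other 8, Prkaa2, Rab9a and Nit2 are given with their values. Prkaa2, a catalytic subunit of the energy sensor AMPK, read 4.07, 2.83, 2.89 and 1.53 CPM in FT and 11.8, 5.05, 6.46 and 7.47 CPM in Sham. Rab9a, a GTPase of late endosomes, read 15.6, 14.6, 18.9 and 15.5 CPM in FT and 37.0, 41.2, 30.7 and 21.3 CPM in Sham. Neither gene had an FT sample as high as a Sham sample. Nit2, an omega-amidase, read 18.5, 9.30, 24.4 and 16.5 CPM in FT and 42.0, 17.9, 39.7 and 35.3 CPM in Sham, with replicate 3 low in both groups. Of transcripts without a gene name, ENSRNOT00000004867 had a log2FC of -1.17 ± 0.18 (SE) and ENSRNOT00000074406 one of -2.59 ± 0.47, while ENSRNOT00000075646 and ENSRNOT00000066879 were higher (1.02 ± 0.21 and 1.19 ± 0.25).

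**Figure D3:**
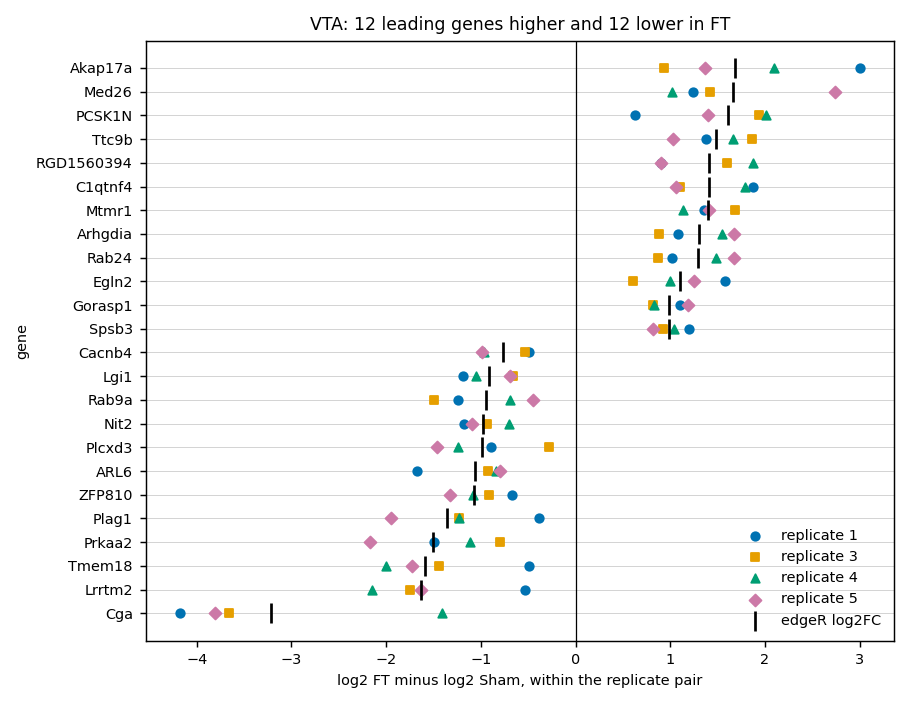
Log2 ratio of FT to Sham within each replicate pair (coloured symbols) and the edgeR log2FC (black bars) for the 12 leading genes higher and the 12 lower in FT. No symbol crosses 0 because this was part of the selection, and the spread between pairs is widest for Cga, from -4.18 to -1.41.

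The DNA just upstream of these genes is described by its composition, without a test. Sequences were taken from the RefSeq promoter table (build GRCr8), which holds 27457 genes, as the 250 bases before the first start listed for each. Named genes that DESeq2 called higher had a median GC content of 60.8% (120 of 145 genes matched), and those called lower had 52.8% (30 of 36 matched). The median was 60.4% over all named genes tested (1466 of 1829 matched) and 52.0% over the whole table. The letters GGGCGG (a GC box, on either strand) were found in 64.2% of the higher and 36.7% of the lower set, against 61.9% of named genes and 32.4% of the table. The letters TATAAA stood in 3.33% and 10.0%, against 7.57% and 13.1%, and CCAAT in 36.7% and 40.0%, against 35.7% and 34.3%. A match is a description of the letters and not a binding site. The upstream windows of the leading gene of each direction and of Trim28, whose values follow further on, are shown, with these 3 motifs on either strand in capitals. Ttc9b lies at chr1:92080776-92081025 (plus strand, GC content of 62.4%), Trim28 at chr1:82724645-82724894 (plus strand, 68.0%) and Cga at chr5:54283090-54283339 (plus strand, 43.2%).
Ttc9b: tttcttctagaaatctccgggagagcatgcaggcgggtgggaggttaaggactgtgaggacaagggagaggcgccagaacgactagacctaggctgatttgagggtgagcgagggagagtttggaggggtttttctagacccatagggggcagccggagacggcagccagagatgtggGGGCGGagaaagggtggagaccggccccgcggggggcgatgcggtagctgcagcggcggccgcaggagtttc
Trim28: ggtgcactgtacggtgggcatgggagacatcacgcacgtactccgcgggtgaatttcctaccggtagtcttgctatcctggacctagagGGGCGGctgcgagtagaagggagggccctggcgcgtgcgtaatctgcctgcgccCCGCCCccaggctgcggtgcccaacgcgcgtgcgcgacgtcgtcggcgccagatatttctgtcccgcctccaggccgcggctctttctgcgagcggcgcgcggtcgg
Cga: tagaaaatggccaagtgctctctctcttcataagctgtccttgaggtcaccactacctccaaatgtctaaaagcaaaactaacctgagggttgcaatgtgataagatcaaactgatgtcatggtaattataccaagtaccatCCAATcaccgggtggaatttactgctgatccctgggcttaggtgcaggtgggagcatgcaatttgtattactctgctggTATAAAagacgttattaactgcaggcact

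The window of Ttc9b held 1 GC box and that of Trim28 held 2, with no TATA box in either. The window of Cga held no GC box, 1 TATA box close to its start and 1 CCAAT box.

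Genes of dopamine synthesis and reuptake had no common direction across the pairs. Of the 29 genes on the dopamine list 8 had a named transcript, and all 8 were tested. By an unadjusted edgeR p under 0.05, 2 were higher (Spr and Sncg) and 0 lower, and DESeq2 called 1. Lists can hold named transcripts only, of which 26.8% were higher and 9.51% lower at that p and 7.93% and 1.96% were called higher and lower by DESeq2, so 2 of 8 (25%) was near the background. Their median log2FC was 0.35, against 0.01 for all transcripts tested and 0.24 for the 1840 named ones.

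Th, the rate-limiting enzyme of dopamine synthesis, read 485, 568, 90.3 and 86.4 CPM in FT replicates 1, 3, 4 and 5 and 337, 406, 140 and 244 CPM in the matching Sham samples. It was therefore higher in FT in pairs 1 and 3 and lower in pairs 4 and 5, and replicates 1 and 3 were above replicates 4 and 5 in both groups. The log2FC was -0.27 ± 0.35 (SE), with an unadjusted edgeR p of 0.462. In pairs 4 and 5 alone it was -1.07, and in pairs 1 and 3 alone 0.45, which restates the signs of the pairs.

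Slc6a3 was the most variable member. It had 182, 385, 105 and 38 counts in FT and 9, 405, 1075 and 1629 counts in Sham, or 18.5, 156, 5.06 and 2.43 CPM against 5.04, 157, 55.6 and 61.8 CPM. FT was far below Sham in pairs 4 and 5, level in pair 3 and above in pair 1. The log2FC over all pairs was -1.75 ± 0.99 (SE), with an unadjusted edgeR p of 0.109. In pairs 4 and 5 alone it was -4.0 and in pairs 1 and 3 alone 0.42, given as a description of the same difference between pairs. Set against Th in the same library, Slc6a3 gave 3.82, 27.4, 5.60 and 2.81 counts per 100 Th counts in FT and 1.5, 38.8, 39.8 and 25.4 in Sham. The ratio was thus low in all FT samples but replicate 3, and it was lowest of all in Sham replicate 1. Cds2, also highest in replicate 3 of both groups, is an enzyme of phospholipid synthesis and read 0.915, 54.6, 0.867 and 0.319 CPM in FT and 0, 39.2, 4.24 and 4.89 CPM in Sham. Mat2a, which makes S-adenosylmethionine, read 8.03, 23.0, 13.3 and 8.05 CPM in FT and 2.24, 36.9, 67.8 and 61.9 CPM in Sham. Mat2a was instead highest in Sham replicates 4 and 5, and like Slc6a3 it was lower in FT in pairs 4 and 5 and higher in pair 1.

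**Figure D4:**
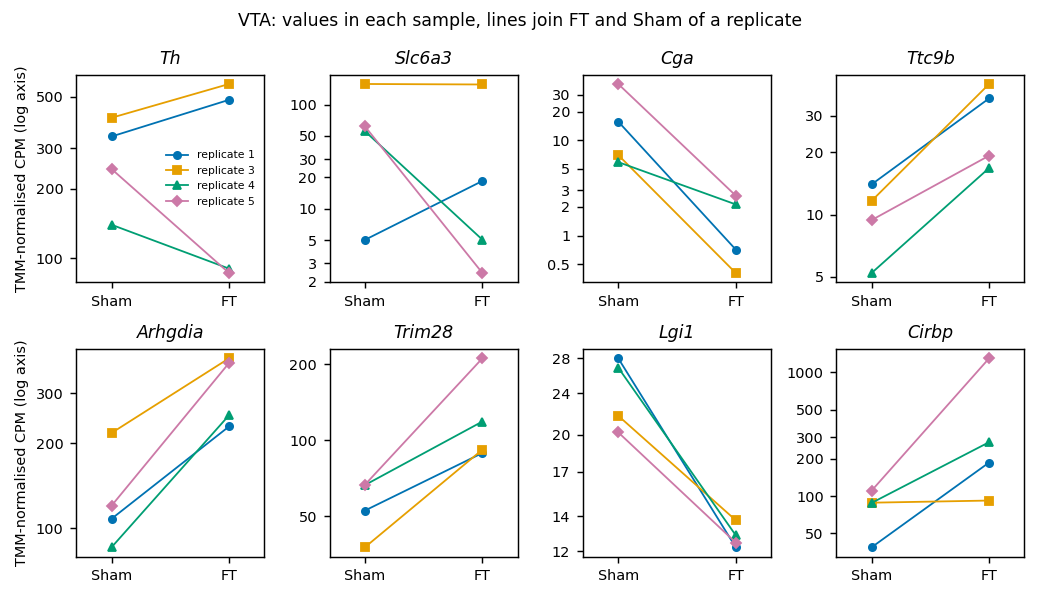
TMM-normalised CPM on a log axis in each VTA sample for 8 genes, with lines joining FT and Sham of the same replicate. Cga, Ttc9b, Arhgdia, Trim28, Lgi1 and Cirbp go the same way in all 4 pairs, while Th goes up in replicates 1 and 3 and down in replicates 4 and 5, and Slc6a3 goes up in replicate 1 only.

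Of the 4 measured genes of the cofactor of tyrosine hydroxylase, DESeq2 called Spr alone. Spr, sepiapterin reductase, which completes tetrahydrobiopterin synthesis, read 37.2, 45.7, 19.0 and 26.9 CPM in FT and 17.9, 35.0, 7.65 and 11.3 CPM in Sham. It was higher in 4 of 4 pairs with a log2FC of 1.01 ± 0.22 (SE), and DESeq2 called it (adjusted p = 0.0429). Replicate 3 of Sham was above FT replicates 4 and 5, so the groups overlapped. Qdpr, which regenerates the cofactor, read 514, 982, 419 and 495 CPM in FT and 439, 1107, 195 and 217 CPM in Sham, higher in 3 of 4 pairs (0.59 ± 0.29, SE). Gchfr, which couples cofactor synthesis to feedback, had a log2FC of 0.63 ± 0.32, and Pts, the middle enzyme, one of 0.18 ± 0.35, each higher in 2 of 4 pairs. In pairs 1 and 3 alone Qdpr, Gchfr and Pts had the other sign. Sncg, gamma-synuclein, was higher in 4 of 4 pairs (0.52 ± 0.22), and DRD2 had a log2FC of -0.06 ± 0.38.

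Of the 16 serotonin genes only Htr1a, the autoreceptor of raphe neurons, had a named transcript. It read 0.102, 1.62, 0.0963 and 0.128 CPM in FT and 0, 2.33, 0.724 and 0.873 CPM in Sham. These are few reads, with the highest in replicate 3 of both groups, and FT was lower in 3 of 4 pairs. The log2FC was -1.85 ± 0.72 (SE) in edgeR, and DESeq2 gave no adjusted p. Among genes of other transmitters Gad2, a GABA-synthesising enzyme, was lower in 4 of 4 pairs without overlap. It read 30.4, 26.3, 25.2 and 25 CPM in FT and 34.2, 34.2, 38.5 and 36.3 CPM in Sham, a difference of -0.43 ± 0.18 (SE) on the log2 scale (DESeq2 adjusted p = 0.329). Slc5a7, the choline transporter, was lower in 3 of 4 pairs (-0.81 ± 0.35). Of the 6 transcripts tested on that list 3 were lower and 0 higher at an unadjusted p under 0.05, and their median log2FC was -0.32. The 3 are 50% of a short list, against 9.51% of named transcripts.

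Peptide genes gave 5 higher and 0 lower of 17 transcripts tested at an unadjusted p under 0.05, with a median log2FC of 0.23. The 5 are 29.4% of the list, near the 26.8% of named transcripts, and they include both transcripts of PCSK1N. Those 2 were the ones that DESeq2 called. Oxt, oxytocin, read 0.102, 10.1, 2.41 and 0.0639 CPM in FT and 0, 1.55, 0 and 0.0379 CPM in Sham. Avp, vasopressin, read 0.610, 9.30, 1.49 and 0.192 CPM in FT and 0, 3.88, 0.0517 and 0.190 CPM in Sham. Both were higher in 4 of 4 pairs after scaling, on counts of at most 50 per library. In pair 5 Oxt had 1 count in FT and 1 in Sham, and Avp had 3 in FT and 5 in Sham. In pair 1 Sham had 0 counts of both genes, against 1 (Oxt) and 6 (Avp) in FT. Their means in the Arc were 1715 and 1066 CPM. The summed hypothalamic markers were also higher in FT in pairs 1 and 3 and lower in pairs 4 and 5, and their part in these reads was not tested.

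Nuclear genes of the mitochondrion leaned higher, while genes on the mitochondrial genome leaned lower. Of 32 transcripts of the respiratory chain and ATP synthase 30 had a positive log2FC, with a median of 0.37. At an unadjusted p under 0.05, 9 were higher and 1 lower, and DESeq2 called 3 higher and 1 lower. The share above 0 was 93.8%, against 61.0% of named transcripts, while the shares higher at that p (28.1%) and by DESeq2 (9.38%) were near the 26.8% and 7.93% of named transcripts. Atp5d, a subunit of ATP synthase, read 111, 621, 49.1 and 82.5 CPM in FT and 48.7, 347, 22.5 and 56.2 CPM in Sham (log2FC of 0.92 ± 0.21, SE), and Ndufv1, of complex I, had a log2FC of 0.80 ± 0.21. Both were called by DESeq2 (adjusted p = 0.0131 and 0.0377). The list did not move alike in all pairs, with medians of -0.35 and -0.01 in pairs 1 and 3 and of 1.01 and 0.98 in pairs 4 and 5.

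Mitochondrial ribosomal proteins had 22 of 26 transcripts above 0 and a median log2FC of 0.33, with 8 higher and 0 lower at an unadjusted p under 0.05 and 0 called by DESeq2. The 8 are 30.8% of the list, near the 26.8% of named transcripts. The share above 0 was 84.6%, against 61.0% of named transcripts. The list medians within pairs 1, 3, 4 and 5 were -0.09, 0.04, 0.68 and 0.77. Mrps34 and mrpl11 had the smallest p (0.79 ± 0.26 and 0.69 ± 0.25, SE), and each was higher in 3 of 4 pairs. Of 8 transcripts encoded on mitochondrial DNA 7 were below 0, with a median of -0.65. At an unadjusted p under 0.05, 1 was lower (12.5%, against 9.51% of named transcripts). MT-ND5 read 939, 2286, 1544 and 1505 CPM in FT and 3029, 5457, 2063 and 1622 CPM in Sham, so that pairs 1 and 3 carried most of the difference. MT-ND4L was lower in 3 of 4 pairs. The medians of this list were -1.79 and -0.71 in pairs 1 and 3 and 0.15 and -0.11 in pairs 4 and 5.

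Cytosolic ribosomal proteins had no common direction, with 13 of 27 above 0 and a median of -0.14. Rpl14 was lower in 4 of 4 pairs and was called by DESeq2 (-0.90 ± 0.23, SE, adjusted p = 0.0210), and FAU was higher in 4 of 4 (0.87 ± 0.24). Such genes have many near-identical copies in the genome, so their counts are uncertain.

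Chromatin regulators had 24 of 31 transcripts above 0 and a median of 0.29. At an unadjusted p under 0.05, 9 were higher and 0 lower, and DESeq2 called 4 higher and 0 lower. The groups were apart for 4, against 123 of the 1840 named transcripts and 3.18% of all transcripts tested. The share higher at that p, 29.0%, was near the 26.8% of named transcripts, and 12.9% were called higher by DESeq2 against 7.93%. Trim28, a corepressor that recruits histone methylation to zinc finger proteins, read 89.0, 91.7, 118 and 211 CPM in FT and 52.6, 37.7, 66.4 and 66.6 CPM in Sham. Every FT sample was above every Sham sample (1.14 ± 0.22, SE, DESeq2 adjusted p = 0.00700). Smarcd3, a subunit of a chromatin-remodelling complex, read 107, 65.9, 53.7 and 74.2 CPM in FT and 48.7, 34.2, 32.1 and 43.3 CPM in Sham, also without overlap (0.89 ± 0.18, adjusted p = 0.0131). The study names Trim28 as changed in many regions of these samples, so its direction is not independent evidence.

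Genes of ubiquitin and the proteasome were found on both sides, with 9 higher and 4 lower of 29 at an unadjusted p under 0.05 and 5 and 2 called by DESeq2. Their median log2FC was 0.37, and the medians within pairs 1, 3, 4 and 5 were 0.19, 0.17, 0.23 and 0.42. The shares past that p, 31.0% and 13.8%, compare with 26.8% and 9.51% of named transcripts. Ubxn1, a cofactor of the VCP segregase, had a log2FC of 1.10 ± 0.22 (SE) and the deubiquitinase Usp20 one of 0.91 ± 0.19, and both were higher in 4 of 4 pairs and called by DESeq2 (adjusted p = 0.0184 and 0.0190).

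**Figure D5:**
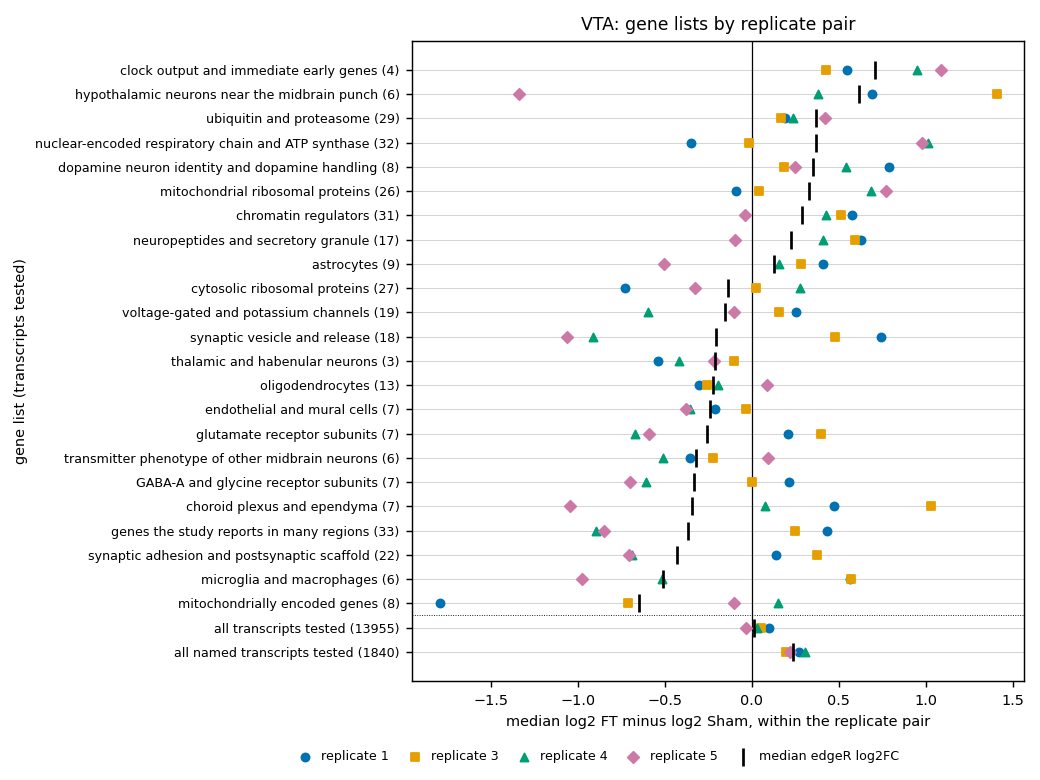
Median log2 ratio of FT to Sham within each replicate pair (coloured symbols) and median edgeR log2FC (black bars) for each gene list with 3 or more transcripts tested, with all and all named transcripts below the dotted line. Pairs 4 and 5 lie apart from pairs 1 and 3 for the respiratory chain (1.01 and 0.98 against -0.35 and -0.01) and, on the other side, for synaptic vesicle genes (-0.92 and -1.06 against 0.74 and 0.48).

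Genes of synaptic adhesion and the postsynaptic scaffold had 13 of 22 transcripts below 0 and a median of -0.43, with medians of 0.14 and 0.37 in pairs 1 and 3 and of -0.69 and -0.71 in pairs 4 and 5. At an unadjusted p under 0.05, 4 were higher and 4 lower, and DESeq2 called 3 and 2. The shares past that p, 18.2% each way, compare with 26.8% higher and 9.51% lower among named transcripts. Those called by DESeq2, 13.6% and 9.09%, compare with 7.93% and 1.96%. Lrrtm4, a relative of Lrrtm2, read 0.203, 0, 2.94 and 2.49 CPM in FT and 0, 0.777, 12.7 and 13.1 CPM in Sham, and it was lower in 3 of 4 pairs. Synaptic vesicle genes had a median of -0.21, with 4 higher and 5 lower of 18 at an unadjusted p under 0.05. These are 22.2% and 27.8%, against 26.8% and 9.51% of named transcripts. Sncb, beta-synuclein, read 427, 753, 112 and 259 CPM in FT and 176, 545, 66.0 and 116 CPM in Sham and was called by DESeq2 (0.91 ± 0.23, SE, adjusted p = 0.0272). Ap2s1, a subunit of the endocytic adaptor, was higher in 4 of 4 pairs (1.07 ± 0.23, adjusted p = 0.0386), with 212 and 130 CPM in replicate 3 and at most 15.3 CPM elsewhere.

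Receptor and channel genes showed single differences rather than a common one. Of 7 glutamate receptor transcripts 2 were higher and 1 lower at an unadjusted p under 0.05, and DESeq2 called 0. Grin2c, an NMDA receptor subunit, read 10.3, 17.4, 13.8 and 15.6 CPM in FT and 10.1, 8.55, 5.37 and 7.25 CPM in Sham, without overlap though nearly level in pair 1 (0.93 ± 0.28, SE, DESeq2 adjusted p = 0.136). Grm4, a metabotropic receptor, was higher in 4 of 4 pairs (1.27 ± 0.37) at 0.930 to 15.4 CPM. Of 7 GABA-A and glycine receptor transcripts 1 was higher and 2 lower, and DESeq2 called 0. Gabrg1 was lower in 3 of 4 pairs (-0.87 ± 0.34), and Gabra6, with at most 26 counts in any sample, was higher in pairs 4 and 5 and had 0 counts in both groups of pairs 1 and 3. Of 19 voltage-gated and potassium channel transcripts 3 were higher and 4 lower, and DESeq2 called 1 each way, with Cacnb4 on the lower side. The medians of the 3 lists were -0.26, -0.33 and -0.16. Their shares higher at that p were 28.6%, 14.3% and 15.8%, against 26.8% of named transcripts. Those lower were 14.3%, 28.6% and 21.1%, against 9.51%.

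Of the genes that the study names as most widely changed, Otub1 and Trim28 were higher in 4 of 4 VTA pairs and Mat2a, Napb and Cds2 were split. Otub1, a deubiquitinase, read 743, 298, 441 and 1277 CPM in FT and 335, 218, 293 and 358 CPM in Sham (1.00 ± 0.28, SE, DESeq2 adjusted p = 0.0549), and FT replicate 3 was below Sham replicates 1 and 5. Napb, a SNAP protein of vesicle fusion, read 8.85, 21.4, 5.64 and 5.05 CPM in FT and 4.48, 26.4, 37.7 and 23.7 CPM in Sham. The log2FC of Mat2a, Napb and Cds2 were -1.48 ± 0.59, -1.31 ± 0.54 and -1.33 ± 0.73, each carried by pairs 4 and 5, and in pair 1 all 3 were higher in FT. Of 33 transcripts on the list of widely changed genes, 7 were higher and 8 lower at an unadjusted p under 0.05, DESeq2 called 3 and 1, and the median was -0.37. The shares past that p were 21.2% and 24.2%, against 26.8% and 9.51% of named transcripts. That list was chosen by the study on these samples, so the count is not independent evidence.

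Genes of the clock output and of cold or activity responses were measured by 4 transcripts, all above 0, with a median of 0.71. Cirbp, a cold-inducible RNA-binding protein, read 187, 92.1, 273 and 1296 CPM in FT and 38.6, 88.6, 88.2 and 111 CPM in Sham. FT replicate 5 stood apart and pair 3 was nearly level (1.90 ± 0.50, SE, DESeq2 adjusted p = 0.0184). Without replicate 5 the log2FC of Cirbp was 1.26. Dbp, a clock-controlled transcription factor, read 64.6, 47.3, 114 and 178 CPM in FT and 62.7, 36.5, 41.2 and 42.9 CPM in Sham (1.01 ± 0.33, adjusted p = 0.161). By the study's methods, rats of both groups were killed late in the morning.

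Markers of glia and of neighbouring tissue were read beside these results. Of 13 oligodendrocyte transcripts 4 were higher and 3 lower at an unadjusted p under 0.05, with a median of -0.22 and a summed level of 1198 to 1639 CPM in FT and 1333 to 1834 CPM in Sham. Sox10, the transcription factor of the lineage, read 46.6, 59.4, 74.3 and 81.7 CPM in FT and 35.3, 40.0, 30.9 and 34.0 CPM in Sham without overlap (0.90 ± 0.22, SE, DESeq2 adjusted p = 0.0666). GJB1, a gap junction protein of myelinating cells, was higher in 4 of 4 pairs (0.76 ± 0.19, adjusted p = 0.0950). Of the 13, 8 were below 0, and 4 were higher and 4 lower in all 4 pairs. DESeq2 called 2 higher (15.4%) and 0 lower, against 7.93% and 1.96% of named transcripts. At an unadjusted p under 0.05 the shares were 30.8% higher and 23.1% lower, against 26.8% and 9.51%. The sum of the list did not separate the groups.

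Of 9 astrocyte transcripts 2 were higher and 1 lower (Kcnj10, -2.12 ± 0.87, named after its value was seen), and 4 of the 9 were below 0. The median was 0.13, against 0.24 for named transcripts, with a sum of 1727 to 25528 CPM in FT and 1540 to 15244 CPM in Sham. That range was set by Apoe, which read 758, 18771, 400 and 481 CPM in FT and 570, 10780, 195 and 263 CPM in Sham and was called by DESeq2 (0.78 ± 0.29, SE, adjusted p = 0.0405). Agt, angiotensinogen, was called as well (0.67 ± 0.22, adjusted p = 0.0432). Microglial markers had 1 higher and 0 lower of 6 (C1qa, 0.46 ± 0.19, with Pld4 at 0.58 ± 0.26). The other 4 were below 0, down to -1.42, and the median was -0.51, with a sum of 43.1 to 87.7 CPM in FT and 52.4 to 70.6 CPM in Sham. Endothelial and mural markers had 0 higher and 2 lower of 7 (Ogn, -1.11 ± 0.30, called by DESeq2 with an adjusted p of 0.0703, and Bgn, -1.02 ± 0.37), and their sum was 69 to 94.3 CPM in FT and 74.9 to 96.9 CPM in Sham.

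Choroid plexus and ependymal markers had 0 of 7 past that p in either direction, with Kcnj13 and Ccdc39 closest (-1.09 ± 0.67 and -0.34 ± 0.24, SE), and summed to 69.3 to 221 CPM in FT and 95.8 to 112 CPM in Sham. Both globin transcripts, Hbb and Hbb-b1, were higher in FT in pairs 4 and 5 and lower in pairs 1 and 3, and they summed to 146 to 988 CPM in FT and 148 to 1480 CPM in Sham. Thalamic and habenular markers had 0 of 3 past that p (Rora, -0.51 ± 0.30, and Slc17a6, -0.21 ± 0.22), with sums of 164 to 283 CPM in FT and 158 to 400 CPM in Sham. Of the raphe serotonin markers only Htr1a was measured, at 0 to 2.33 CPM. The part of cell composition in the differences between FT and Sham was not tested.

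The VTA response was compared with those of 2 midbrain neighbours, the periaqueductal gray (PAG) and the raphe, each with 4 FT and 4 Sham samples. In edgeR's test of the treatment by region interaction 0 of 14871 transcripts (0%) passed against the PAG (smallest adjusted p of 0.701, 1008 at an unadjusted p under 0.05). Against the raphe 0 of 14233 (0%) passed (smallest adjusted p of 0.592, 1169 at an unadjusted p under 0.05). DESeq2 was not run for the interaction. Ttc9b had a log2FC of 1.48 in the VTA, 0.73 ± 0.21 (SE) in the PAG and 1.01 ± 0.19 in the raphe. Trim28 had 1.14 in the VTA, 1.36 ± 0.37 in the PAG and 1.10 ± 0.29 in the raphe. The VTA response exceeded that of the raphe by 0.47 ± 0.28 for Ttc9b and 0.04 ± 0.40 for Trim28 (edgeR adjusted p = 0.656 and 0.991).

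Some members stood further from the neighbours without passing the correction. Among the named genes, unadjusted edgeR p against the PAG was smallest for Sncg, RGD1560394, GJB1 and Atp5d. Their differences were 1.60 ± 0.29 (SE), 1.92 ± 0.42, 1.22 ± 0.28 and 1.47 ± 0.35 (adjusted p = 0.701 each). The smallest p of a negative difference was that of Cacnb4 (-0.82 ± 0.23). Against the raphe p was smallest for Atp5d (1.58 ± 0.34). Atp5d had 0.92 in the VTA, -0.57 ± 0.27 in the PAG and -0.65 ± 0.26 in the raphe. The genes that follow had larger p. Spr had 1.01 in the VTA and 0.11 ± 0.19 (SE) in the PAG, a difference of 0.88 ± 0.30 (edgeR adjusted p = 0.713). The second transcript of PCSK1N had -0.14 ± 0.35 in the PAG, and its VTA response (listed as Pcsk1n) was larger by 1.38 ± 0.47 (adjusted p = 0.713). Th had -0.27 in the VTA and -1.91 ± 0.33 in the raphe, a difference of 1.60 ± 0.56 (adjusted p = 0.592), and Slc6a3 had -1.75 in the VTA and -4.59 ± 0.82 in the raphe, a difference of 2.83 ± 1.82 (adjusted p = 0.662). Their means in the raphe were 47.6 and 3.04 CPM, below the VTA and above the medians of the regions other than the VTA (3.25 and 0.126 CPM). Cga had 3.05 ± 2.99 in the raphe, opposite in sign to the VTA, with a difference of -6.15 ± 3.46 (adjusted p = 0.634).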

How the data were processed

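RNA from VTA punches was sequenced in 4 FT and 4 Sham samples. The authors aligned reads to rn5 with STAR and deposited HTSeq counts per Ensembl transcript, with no normalization; tool versions are not given in the sources used here. The methods name a stranded total RNA kit, while the molecule label reads polyA RNA. The 5 summary lines of each file were left out of totals; reads on no feature were 21.3% to 41.5%. Of 29188 transcripts listed, 22784 had a count in the VTA. Gene names came from a shortened table of the study, which names 1844 of the 1989 transcripts it lists, all chosen by the study on these samples. Other transcripts keep their identifiers.

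Counts were TMM-scaled and tested with edgeR 4.0.16 in R 4.3.3 (quasi-likelihood, filterByExpr with a minimum count of 10 and total of 15, replicate number as block), with Benjamini-Hochberg adjustment. SE is the absolute log2FC divided by the root of F. DESeq2 1.42.0 with the same block was the alternative. Deviations from the group means of same-numbered FT and Sham samples correlated at 0.368, 0.731, 0.632 and 0.232, and the methods state parallel processing. Replicates are pools, and the block removes the level that the 2 pools of a pair share. The p-values of the blocked fits therefore measure the spread of the FT to Sham ratio between pairs. The named genes were the 12 named transcripts of smallest p in each direction with the same sign in 4 pairs and a log2FC of 0.322 or more in size, 2 without a name each way, the dopamine and serotonin lists, the 5 genes the study names most widely and the 2 members of smallest p of each other list, of which 1 gene is not reported here. Members and lists were chosen with earlier results of these data known. Scripts were tested on simulated data. Tables were handled in Python 3.11.15 with pandas 2.3.3. Alternatives were no block, median-ratio factors, other count filters, each replicate left out, and pairs 1 and 3 or 4 and 5 alone.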

Additional observations from a re-analysis of the deposited data

Results flagged for a closer look

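In 35 of 168 groups of 4 samples 1 sample lay far from the other 3 by Dixon's ratio. In 30 of the 35 it was the highest sample and came from replicate 3, the number in which the 50 most abundant transcripts took the largest share of counts (74.6% in the FT sample, itself one of these values). About 1 in 20 groups would pass if values were independent and normally distributed. The groups here share the same 8 libraries, and many transcripts were chosen on their values, so the 35 cannot be set against that rate. FT and Sham replicate 3 both stood high for PCSK1N (708 and 184 CPM), Pcsk1n (1166 and 337), C1qtnf4 (124 and 57.9), RGD1560394 (310 and 103), Akap17a (78.0 and 40.8) and Ap2s1 (212 and 130). The same held for Atp5d (621 and 347 CPM), FAU (97.4 and 72.2), Apoe (18771 and 10780), Avp (9.30 and 3.88) and Cds2 (54.6 and 39.2). FT replicate 3 alone stood high for Htr1a (1.62 CPM), MT-ND4L (1737), Qdpr (982) and Slc6a3 (156). Sham replicate 3 alone stood high for ENSRNOT00000066879 (29.5 CPM), Oxt (1.55) and Hbb (1332).

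Other samples stood apart for 5 transcripts. Sham replicate 1 was high for ENSRNOT00000074406 (9.52 CPM), Sham replicate 5 for ENSRNOT00000075646 (24.7 CPM) and FT replicate 5 for Cirbp (1296 CPM). FT replicate 5 was low for Ogn (2.81 CPM) and Sham replicate 4 for Pts (7.55 CPM).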

How the results depend on the processing

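The number of transcripts called depended on the tool, the filter and the pairs used. edgeR called 0 in the main setting, 588 without a low-count filter, 2421 in replicates 1 and 3 alone, 3211 in replicates 4 and 5 alone, and 0 to 1 with 1 replicate left out, while DESeq2 called 249. The 1 transcript called without replicate 3 was ENSRNOT00000071231 (log2FC of -2.87), named after its value was seen. DESeq2 called 106 at an adjusted p of 0.05, 581 in replicates 1 and 3 alone, 1455 in replicates 4 and 5 alone, and 4 to 299 with 1 replicate left out. Without the replicate block edgeR called 0 and DESeq2 1. The interaction calls went from 0 to 88 (PAG) and 91 (raphe) without a low-count filter. The fits of pairs 1 and 3 or 4 and 5 alone rest on few samples, and their counts are a description. The causes were not tested.

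Of the named genes, Th (0.12), Cds2 (0.16) and DRD2 (0.26) had the other sign without the replicate block. In replicates 1 and 3 alone Napb (0.056), Qdpr (-0.029), Gchfr (-0.24), Cds2 (0.46), Slc6a3 (0.42), Hbb-b1 (-0.66), Th (0.45), Pts (-0.59) and DRD2 (0.84) did, and in replicates 4 and 5 alone MT-ND4L (0.05), Ccdc39 (0.043) and Hbb (0.86). With 1 replicate left out the log2FC ran from -0.59 to 0.065 for Th, from -0.36 to 0.45 for Pts, from -0.47 to 0.26 for DRD2, from -0.55 to 0.35 for Hbb and from -0.078 to 0.69 for Hbb-b1. The 24 leading genes kept their sign in every setting in which they were tested, which their selection favours. The rank of the VTA for Th, Slc6a3 and DRD2 was the same in all settings. Sham replicate 1, with 2041893 counts, limits the low transcripts.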
